A study of Rattus norvegicus with 4 samples.

Results

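The genes described here make, package and take up dopamine and histamine, or supply tetrahydrobiopterin, the cofactor that tyrosine hydroxylase needs. The 10 members were Th, Ddc, Slc18a2, Slc6a3, Hdc, Gch1, Pts, Spr, Qdpr and Pcbd1, picked by function and with their ratios in these arrays already known. Of these, 8 matched a probe on the array and all 8 were measured, among 9291 genes measured in all. No probe matched Slc6a3, the dopamine transporter, or Pcbd1, a dehydratase of cofactor recycling. Because the ratio of T3 over saline had a part in choosing them, the members' ratios are given as a description and were not tested.

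Total RNA came from blocks of hypothalamus of 8 male Sprague Dawley rats, cut between bregma -2.12 and -4.52. All 8 rats had been made hypothyroid with methimazole (MMI, a drug that blocks the thyroid peroxidase) at 0.025% in the drinking water for 22 days, starting at 7 weeks of age. On day 21, 4 rats received triiodothyronine (T3, the receptor-active form of thyroid hormone) at 25 ug per 100 g and 4 received saline, both by injection, and tissue was taken 24 h later, with the age given as 10 weeks. The 4 two-colour Agilent arrays each compared 1 T3 rat with 1 saline rat. The T3 sample carried Cy5 on arrays 1 and 3, and the dyes were swapped on arrays 2 and 4. The controls were therefore hypothyroid too, and rats with a normal thyroid axis were not analysed here.

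Dopamine is made in 2 steps: tyrosine hydroxylase (Th) turns tyrosine into L-DOPA, with tetrahydrobiopterin as its cofactor, and aromatic amino acid decarboxylase (Ddc) turns L-DOPA into dopamine. Histidine decarboxylase (Hdc) makes histamine in a single step without that cofactor. The vesicular monoamine transporter (Slc18a2) loads both amines into vesicles. Tetrahydrobiopterin is built from GTP by Gch1, Pts and Spr in turn and, once oxidised, is restored by Pcbd1 and Qdpr. In the hypothalamus, dopamine neurons of the arcuate and periventricular nuclei hold back prolactin release from the pituitary, and histamine neurons of the tuberomammillary nucleus promote wakefulness.

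The share of probes well above background was 49.2% to 67.1% for the T3 rats and 50.9% to 62.5% for the saline rats. Of 14 hypothalamic nucleus markers with a probe, 12 were measured, and Otp and Rax were not well above background on enough arrays. None of the 5 serotonin and noradrenaline neuron markers (Tph2, Slc6a4, Fev, Dbh and Slc6a2) was measured. On array 4, spots beyond row 420 of the 532 rows of the grid stood apart: their brightness correlated at r = 0.839 with the mean of the other arrays, across spots of 1 slide, against 0.977 to 0.980 for arrays 1 to 3. Of the kept probes, 819 were dimmer on array 4 than on the others by over 2 on the log2 scale, and 803 of these lay in that region. Among the members it held the Pts spot and 2 of the 10 Th spots.

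**Figure D1:**
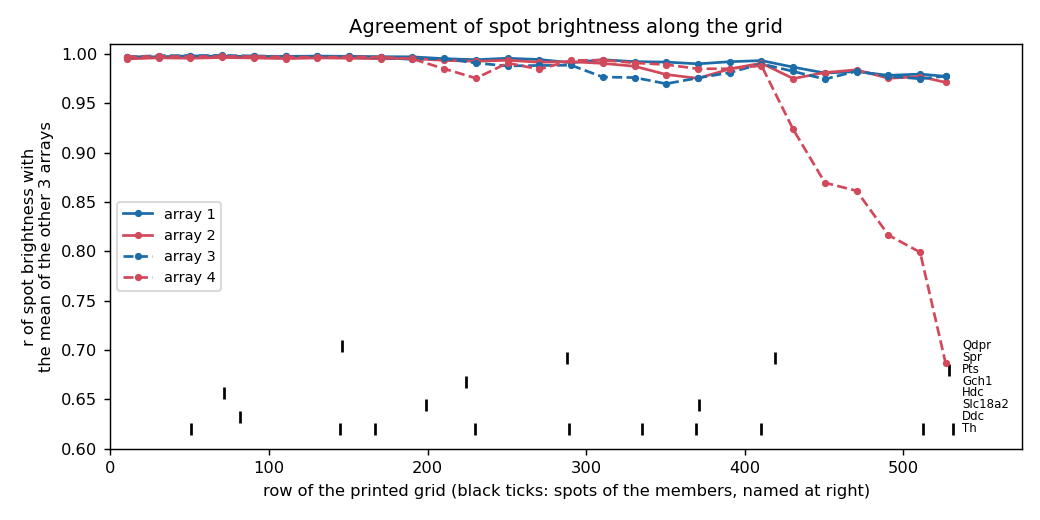
Pearson correlation of spot brightness between each array and the mean of the other 3 (y axis) along the rows of the printed grid (x axis), with black ticks at the rows of the members' spots. Array 4 falls away beyond row 420, where the Pts spot and 2 Th spots lie, while the plotted values of arrays 1 to 3 there lie between 0.971 and 0.987.

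Th, Ddc and Slc18a2, the 3 measured genes of dopamine synthesis and packaging, were higher in the T3 rat than in its saline partner on each of the 4 arrays. Hdc and Qdpr were lower on each. Gch1, Pts and Spr, the 3 steps that build tetrahydrobiopterin, had both signs among the arrays and means near 0. Thus 3 of 8 measured members were higher on all 4 arrays, beside 9.48% of all genes, and 2 of 8 were lower on all 4, beside 7.84%, and nothing is read from these counts because the members were picked with the ratios known. The median ratio of all 9291 genes was 0.00 on the log2 scale.

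**Figure D2:**
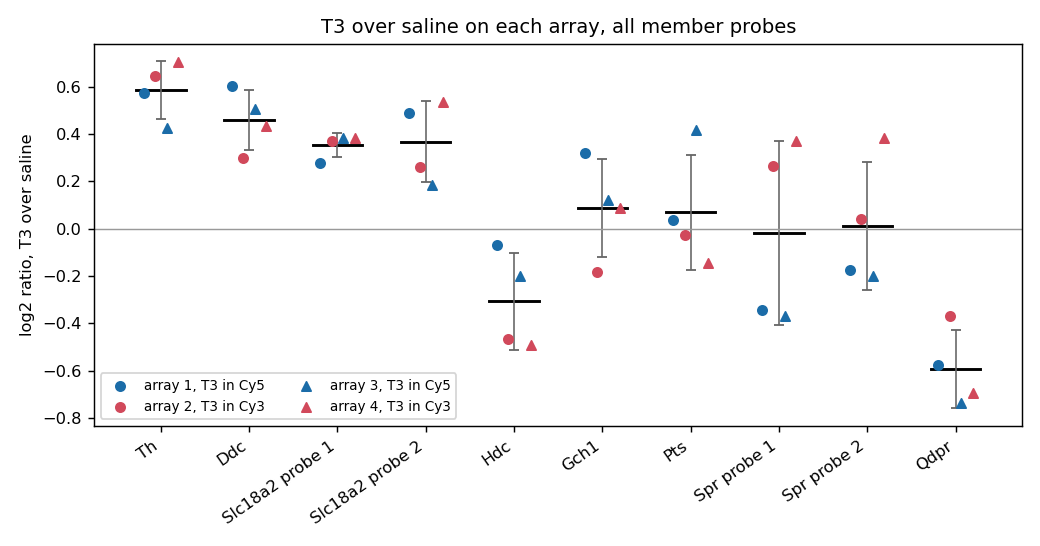
Log2 ratio of T3 over saline (y axis) for each member probe (x axis), with a point for each array, a black line at the mean of 4 arrays and bars of 1 SD. Th, Ddc and both Slc18a2 probes lie above 0 on all 4 arrays, Hdc and Qdpr lie below 0 on all 4, and both Spr probes have opposite signs with T3 in Cy5 and in Cy3.

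Th catalyses the rate-limiting step of dopamine synthesis. Its normalised log2 levels on arrays 1 to 4 were 12.30, 11.38, 12.59 and 11.95 in the saline rats and 12.87, 12.02, 13.01 and 12.66 in the T3 rats. Each T3 rat was above the saline rat on its array, but the groups overlapped, since the saline rats spanned more than the difference. The 2 rats of an array were read from the same spots. For Th and the other members, a span of levels over arrays therefore mixes spot and slide brightness with differences between rats. The log2 ratios were 0.57, 0.64, 0.42 and 0.71, a mean of 0.59 ± 0.12 (SD, n = 4 arrays) or 1.50-fold, and 55 of the 9291 genes had a higher mean. The probe was printed at 10 spots on each array, and the SD over these spots was 0.048 to 0.088, below the 0.12 between arrays. The ratio on array 4 was 0.70 without the 2 spots beyond row 420.

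Ddc also acts in the synthesis of serotonin and of trace amines. Its levels on arrays 1 to 4 were 14.61, 14.50, 14.96 and 14.54 in saline rats and 15.22, 14.80, 15.47 and 14.98 in T3 rats. The groups overlapped only through the saline rat of array 3, which lay above the T3 rat of array 2. The log2 ratios were 0.60, 0.30, 0.51 and 0.44, with a mean of 0.46 ± 0.13 (SD, n = 4 arrays) or 1.38-fold.

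Slc18a2 fills synaptic vesicles in every monoamine neuron, histamine neurons included. Its brighter probe read 11.09, 10.82, 11.29 and 11.06 in the saline rats of arrays 1 to 4 and 11.37, 11.19, 11.67 and 11.44 in the T3 rats. The saline rat of array 3 again lay above the T3 rat of array 2, so the groups overlapped. The ratios of this probe were 0.28, 0.37, 0.38 and 0.38, a mean of 0.35 ± 0.05 (SD, n = 4 arrays) or 1.28-fold, the smallest spread among the measured members. A second probe gave 0.49, 0.26, 0.18 and 0.54, a mean of 0.37 ± 0.17, so the probes had the same sign on each array and differed in spread.

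**Figure D3:**
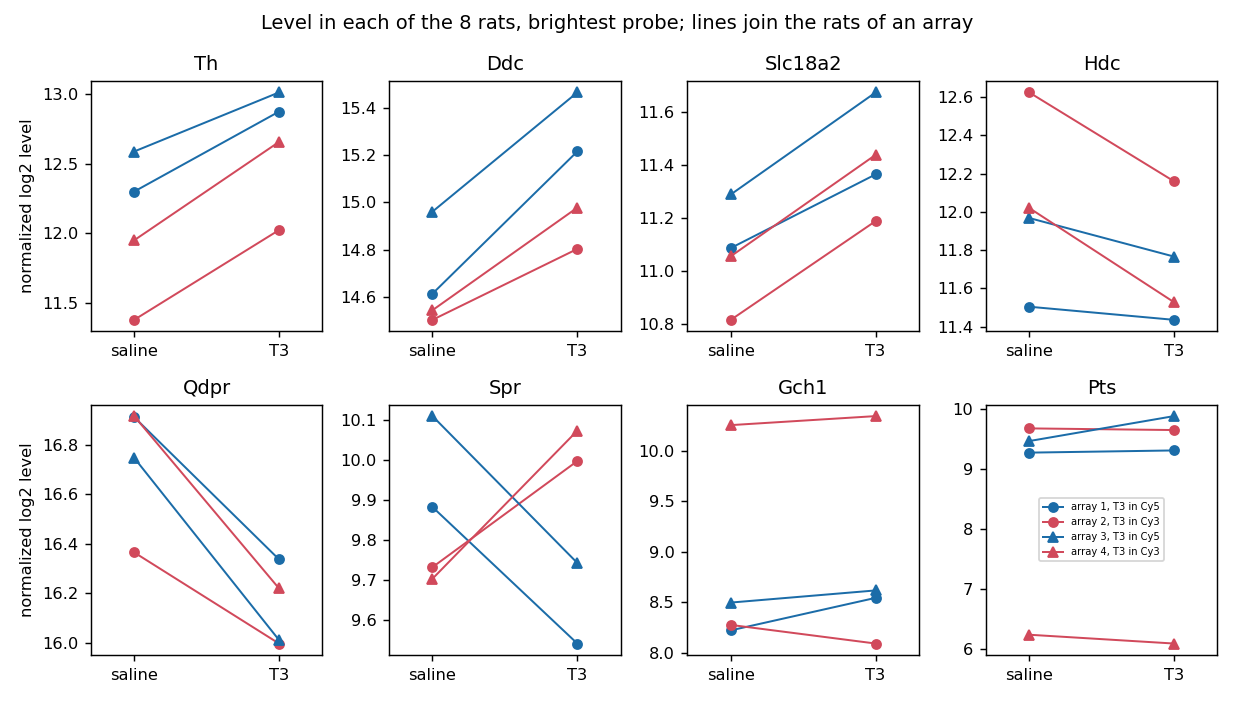
Normalised log2 level of each measured member's brightest probe (y axis, a separate scale in each panel) in the saline and T3 rats (x axis), with lines joining the 2 rats of an array. All lines slope up for Th, Ddc and Slc18a2 and down for Hdc and Qdpr, the Spr lines cross by dye, and array 4 stands apart for Gch1 and Pts.

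In bulk tissue, fewer cells of a type and less RNA per cell cannot be told apart, and the same holds for more cells and more RNA. Midbrain dopamine neurons lie next to the hypothalamic block, and 4 of their 10 markers were measured, all with a mean above 0. None passed the threshold of an adjusted p of 0.05 in the limma fit, but 3 of the 4 were higher at an unadjusted p under 0.05, beside 497 of all 9291 genes. Their median ratios on arrays 1 to 4 were 0.54, 0.06, 0.34 and 0.39. Their summed linear level ranged from 17290 to 21395 in T3 rats and from 14466 to 16797 in saline rats, so these sums did not overlap. Most of each sum came from Ret, with log2 levels of 13.35 to 14.04, and then from Aldh1a1, with 11.10 to 12.21. Slc10a4, at 7.75 to 9.30, and Chrna6, at 7.04 to 7.83, added little. Pitx3, Foxa1, En2 and Ntsr1 were not well above background on enough arrays, and En1 and Lmx1b had no probe. Array 2 had the lowest marker median, with ratios of -0.23 for Slc10a4, -0.01 for Aldh1a1, 0.13 for Chrna6 and 0.35 for Ret, beside 0.64 for Th, 0.30 for Ddc and 0.37 for Slc18a2. Foxa2, from the list of dopamine neuron regulators and not among these markers, had 0.71 on array 2. On arrays 1, 3 and 4 Foxa2 had 0.63, 0.78 and 0.51. The part of adjacent midbrain tissue in the Th, Ddc and Slc18a2 ratios was not tested.

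The authors' deposited table of log ratios gave these 3 genes means below 0, each smaller in size than its SD over the 4 arrays. In it Th had 0.21, -0.40, 0.68 and -0.71 on arrays 1 to 4, with a mean of -0.053 ± 0.62 (SD). These Th values were positive with T3 in Cy5 and negative with T3 in Cy3. The means in the authors' deposited table were -0.16 ± 0.39 for Ddc and -0.15 ± 0.31 for Slc18a2. Qdpr kept its direction there at -0.43, -0.54, -1.17 and -0.33, with a mean of -0.62. Across 23141 probes, which are not independent replicates, the authors' deposited table correlated with the ratios from the scanner files at r = 0.43, 0.43, 0.19 and 0.28 on arrays 1 to 4. The cause was not tested.

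The stretches of 250 bases before the annotated start of Th and Slc18a2 are shown because both genes were higher in T3 rats and both hold the palindromic cAMP response element TGACGTCA, and those of Hdc and Qdpr because both genes were lower. The sequences are from RefSeq on build GRCr8, which matched all 10 members, and read 5′ to 3′ on the gene's strand. Capitals mark TGACGTCA and the GC box GGGCGG in either orientation, and no listed stretch has a TATAAA or the thyroid hormone response half-site AGGTCA. Th lies on the minus strand at chr1:207508219-207508468, Slc18a2 on the plus strand at chr1:268399771-268400020, Hdc on the minus strand at chr3:134318705-134318954 and Qdpr on the plus strand at chr14:69882526-69882775.
Th: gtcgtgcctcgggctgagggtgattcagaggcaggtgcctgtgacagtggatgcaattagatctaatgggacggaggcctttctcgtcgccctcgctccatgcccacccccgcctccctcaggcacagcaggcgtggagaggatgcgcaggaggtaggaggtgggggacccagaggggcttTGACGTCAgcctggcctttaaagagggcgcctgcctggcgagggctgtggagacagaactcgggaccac
Slc18a2: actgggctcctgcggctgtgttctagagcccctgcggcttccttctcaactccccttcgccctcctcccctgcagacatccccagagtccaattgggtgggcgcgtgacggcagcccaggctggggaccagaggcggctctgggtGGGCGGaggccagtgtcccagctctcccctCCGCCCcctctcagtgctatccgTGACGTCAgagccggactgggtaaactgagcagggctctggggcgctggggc
Hdc: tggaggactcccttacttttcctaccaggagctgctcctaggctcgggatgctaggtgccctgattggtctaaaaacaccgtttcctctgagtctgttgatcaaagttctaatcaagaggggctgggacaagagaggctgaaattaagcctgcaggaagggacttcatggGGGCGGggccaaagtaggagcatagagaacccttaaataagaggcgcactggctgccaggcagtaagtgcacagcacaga
Qdpr: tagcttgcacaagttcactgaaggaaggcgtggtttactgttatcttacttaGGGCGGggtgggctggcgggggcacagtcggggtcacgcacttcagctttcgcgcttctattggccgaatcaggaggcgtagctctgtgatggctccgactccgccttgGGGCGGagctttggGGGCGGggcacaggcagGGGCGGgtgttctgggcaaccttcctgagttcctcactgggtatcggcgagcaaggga

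TGACGTCA began 69 bases before the Th start and 52 bases before the Slc18a2 start. It was in 1.59% of 33469 promoter stretches of the same length, on either strand, and in no other member. AGGTCA, present in 14.1% of all stretches, was found in Ddc and Pcbd1 alone among the members. For Ddc, 3 annotated starts were searched, and AGGTCA lay before starts 1 and 3 and not before start 2. The other members had 1 start each. Qdpr held GGGCGG at 4 places, and 30.5% of all stretches held it at least once. Of the other motifs searched on both strands, TATAAA was in 12.9% of all stretches, CANNTG in 65.5% and CCAAT in 34.0%. In Slc18a2, a CANNTG match overlapped the CCAAT matches. A match is a run of letters and not a measured binding site.

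Hdc is the only enzyme that makes histamine from histidine. Its levels on arrays 1 to 4 were 11.50, 12.63, 11.97 and 12.02 in saline rats and 11.44, 12.16, 11.77 and 11.53 in T3 rats. The T3 rat was the lower of each pair, but the groups overlapped, and the T3 rat of array 2 was above 3 of the 4 saline rats. The ratios were -0.07, -0.47, -0.20 and -0.49, a mean of -0.31 ± 0.21 (SD, n = 4 arrays), which is 1.24-fold higher in saline. They split by dye, with a mean of -0.14 with T3 in Cy5 and -0.48 with T3 in Cy3. The dye component of Hdc, the mean log2 ratio of Cy5 over Cy3, was 0.17, beside an SD of 0.144 over all kept probes.

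Of 9 markers of histamine neurons, 7 were measured, of which 3 had a higher and 4 a lower mean in T3 rats. Their median ratios were 0.03, -0.14, 0.11 and -0.19 on arrays 1 to 4, and their summed level was 30602 to 36836 in T3 rats and 30664 to 37242 in saline rats. All 12 measured hypothalamic nucleus markers had a mean below 0 at the brightest probe, beside 4468 of all 9291 genes. Their medians on arrays 1 to 4 were -0.05, -0.08, -0.50 and -0.02. A second Ghrh probe had a mean of 0.11, against -0.08 for the brighter probe, which had values on 3 arrays. The part of either marker set in the Hdc ratio was not tested.

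Gch1, GTP cyclohydrolase 1, opens tetrahydrobiopterin synthesis and sets its rate. Its levels were 8.22, 8.28, 8.50 and 10.26 in saline rats and 8.54, 8.09, 8.62 and 10.35 in T3 rats. The levels of both rats of array 4 were far above those of the other 6. Both were read from the only spot of this probe on that array. A spot effect and a difference between rats therefore cannot be told apart. The ratios were 0.32, -0.18, 0.12 and 0.09, a mean of 0.09 ± 0.21 (SD, n = 4 arrays), smaller than the spread between arrays.

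Pts makes the second intermediate of the route. Its levels were 9.27, 9.68, 9.46 and 6.23 in saline rats and 9.31, 9.65, 9.88 and 6.09 in T3 rats. Both rats of array 4 were far below the rest, and the Pts spot there was in the dim region and not well above background in either channel. The ratios were 0.04, -0.03, 0.42 and -0.15, a mean of 0.07 ± 0.24 (SD, n = 4 arrays), and the mean of the other 3 arrays was 0.14.

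Spr, sepiapterin reductase, completes the cofactor. Its brighter probe read 9.88, 9.73, 10.11 and 9.70 in saline rats and 9.54, 10.00, 9.74 and 10.07 in T3 rats, so the groups overlapped. The ratios were -0.34, 0.27, -0.37 and 0.37, negative on both arrays with T3 in Cy5 and positive on both with T3 in Cy3. Their mean was -0.02 ± 0.39 (SD, n = 4 arrays) and the dye component was -0.34. The second Spr probe gave -0.17, 0.04, -0.20 and 0.38, a mean of 0.01 ± 0.27 and a dye component of -0.20, with the same split. With both orientations equally present, a dye component cancels in the mean.

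**Figure D4:**
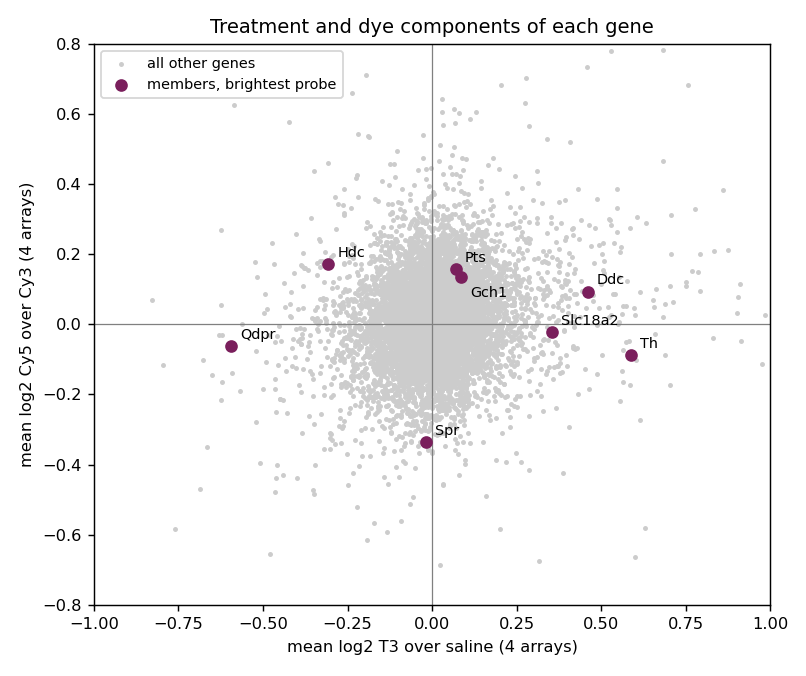
Mean log2 ratio of T3 over saline (x axis) against mean log2 ratio of Cy5 over Cy3 (y axis) over 4 arrays, with the 8 measured members in purple. Genes without a value for the y axis are not drawn. Th at 0.59, Ddc at 0.46 and Qdpr at -0.59 lie along the treatment axis and Spr at -0.34 along the dye axis, and 22 genes outside the axes are not drawn.

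Qdpr, dihydropteridine reductase, restores tetrahydrobiopterin after each hydroxylation, and its transcript is known to be abundant in oligodendrocytes. Its levels were 16.91, 16.36, 16.75 and 16.92 in saline rats and 16.34, 16.00, 16.01 and 16.22 in T3 rats. It was the only measured member whose groups did not overlap, with the highest T3 rat at 16.34 just under the lowest saline rat at 16.36. That is 1 of 8 members, beside 0.764% of all genes with all T3 levels below all saline levels, and none of 8 had all T3 levels above, beside 1.26%. Nothing is read from these counts. The ratios were -0.58, -0.37, -0.74 and -0.70, a mean of -0.59 ± 0.17 (SD, n = 4 arrays), which is 1.51-fold higher in saline. Only 14 of the 9291 genes had a lower mean ratio.

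Of 17 measured oligodendrocyte markers, 13 had a lower and 4 a higher mean in T3 rats, beside 4468 lower and 4823 higher of all 9291 genes. None passed the threshold in the limma fit, but 7 of the 17 were lower at an unadjusted p under 0.05, beside 364 of all genes, and 1 was higher. Opalin, with a mean of -0.47, and Nkx6-2, with -0.25, were lower on all 4 arrays, as Qdpr was. A second Opalin probe had a mean of -0.18. Aspa, with a mean of 0.42, was higher on all 4 arrays. The median ratios of the 17 markers on arrays 1 to 4 were -0.17, -0.32, -0.06 and 0.09. Their summed level was 171389 to 291106 in T3 rats and 260274 to 312626 in saline rats, so the groups overlapped. Beside these medians, Qdpr had ratios of -0.58, -0.37, -0.74 and -0.70. The part of oligodendrocyte RNA in the Qdpr ratio was not tested.

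The wider pathway was read from lists of 51 other genes, chosen with earlier results of these data known. Their counts and p-values are therefore a description. Of the 51 genes, 43 had a probe and 26 were measured. Of these 26, 15 had a higher and 11 a lower mean in T3 rats, with a median log2 ratio of 0.05 beside 0.00 for all genes. In the limma fit 1 passed an adjusted p of 0.05, beside 0.161% of all genes (0.151% higher and 0.0108% lower) and 0.0994% of all probes. That gene was Foxa2, a transcription factor that midbrain dopamine neurons need to form and to be kept. Its log2 ratios were 0.63, 0.71, 0.78 and 0.51, a mean of 0.66 ± 0.12 (SD, n = 4 arrays; limma adjusted p = 0.0426). The call was lost in 9 of 15 alternative settings, and the adjusted p over all 15 ranged from 0.0251 to 1.00. With the authors' deposited table the mean was 0.04, and in the other 8 settings that lost the call it was 0.61 to 0.70.

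Foxa2 stood in a list of 13 regulators of dopamine neurons, of which 9 had a probe and 4 were measured. All 4 had a mean above 0, and 1 passed the threshold. Pitx3, Lmx1a, Foxa1, En2 and the prolactin receptor Prlr were not well above background on enough arrays. Lmx1b, En1, Onecut2 and Onecut3 had no probe.

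Of 17 other genes of monoamine synthesis, transport and breakdown, 11 were measured, 5 with a higher and 6 with a lower mean, and none passed. Aldh1a1, an aldehyde dehydrogenase of some dopamine neurons, had 0.80, -0.01, 0.74 and 0.62, a mean of 0.54 ± 0.37 (limma adjusted p = 0.283). Maob, the monoamine oxidase B that breaks down dopamine and a histamine metabolite, had -0.07, -0.18, -0.72 and -0.19, a mean of -0.29 ± 0.29 (limma adjusted p = 0.572). The Aldh1a1 mean came from arrays 1, 3 and 4, while Maob was lower on all 4 arrays and most so on array 3. Tph2, Dbh, Slc6a2, Slc6a4 and Slc22a2 were not well above background on enough arrays, and Pnmt had no probe.

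Of 12 other genes that supply, control or use tetrahydrobiopterin, 7 were measured, 3 with a higher and 4 with a lower mean, and none passed. Agmo, an ether lipid oxygenase that uses the cofactor, had a mean of -0.21 ± 0.17 (limma adjusted p = 0.595). Nos3, the endothelial nitric oxide synthase, had 0.06 ± 0.21 (limma adjusted p = 0.956). Nos1 and Nos2 were not well above background on enough arrays.

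Of 9 dopamine and histamine receptors, 4 were measured, 3 with a higher and 1 with a lower mean, and none passed. The dopamine receptor Drd2, which also acts as an autoreceptor, had 0.29, 0.22, 0.26 and 0.11, a mean of 0.22 ± 0.08 (limma adjusted p = 0.430). Hrh3, the autoreceptor of histamine neurons, had a mean of 0.15 ± 0.13 (limma adjusted p = 0.685). Both were higher on all 4 arrays, with means smaller than that of Th.

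**Figure D5:**
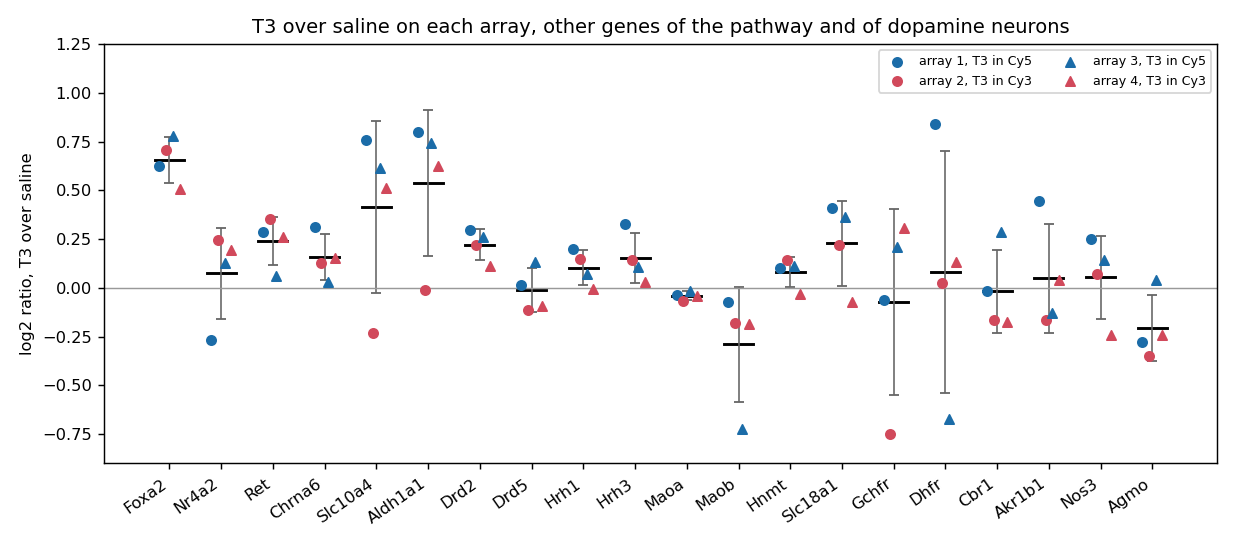
Log2 ratio of T3 over saline (y axis) on each array for 20 other genes of the pathway and of dopamine neurons (x axis), with black lines at the mean and bars of 1 SD over 4 arrays. Foxa2 lies between 0.51 and 0.78, while Aldh1a1 and Slc10a4 lie above 0 on arrays 1, 3 and 4 and at -0.01 and -0.23 on array 2.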

How the data were processed

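The members and the gene lists were chosen with earlier results of these data known. The deposited scanner files came from Agilent Feature Extraction, version 10.7.3.1 in their headers. Per the file headers they gave each spot's median signal and background intensity, a processed intensity, a log10 ratio with Cy5 on top and other values, flags for spots above background, saturated or outlying. Log ratios from the authors, taken as log2, were in a value table for which the submitters' processing notes name limma 3.18.9. The scale, centring and normalization of that table are not given in the sources used here. The medians of the 4 columns were 0.0026, -0.0024, 0.0021 and 0.0030, and 10 spike-in probes, which followed Cy5 over Cy3 at r = 0.996, -0.995, 0.991 and -0.995 on arrays 1 to 4, set its direction as T3 over saline.

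Background was corrected with normexp (offset 50) and each array normalized by loess in limma 3.58.1 under R 4.3.3, in which control spots had weight 0. They and outlier spots were then left out, spots of a probe were averaged, and arrays with T3 in Cy3 were turned. A probe was kept if well above background on at least 3 of 4 arrays in the T3 or the saline channel, which left 23141 of 41012 probes. Levels in single rats were taken after Aquantile scaling. The number of arrays limits the precision. The labels give 8 rats and 4 per treatment, so each array was taken as a separate pair of rats.

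Accessions were matched without versions to RefSeq genes of GRCr8, and 16964 probes had a symbol and 24048 had none. Each gene was read from the kept probe with the highest mean brightness. Genes other than members were tested with lmFit and eBayes (2-sided), with Benjamini-Hochberg adjustment over all kept probes at 0.05. Of each list, genes past the threshold were named, or else the 2 with the smallest p. The fit was checked on simulated data. Alternatives changed the background correction, signal, filter, dye term, eBayes, array weights, scaling, pairing, probe choice and arrays used, and leaving out the array 4 spots beyond row 420 was chosen after seeing the data.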

Additional observations from a re-analysis of the deposited data

Results flagged for a closer look

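Of 52 series of 4 values checked for a single value far from the other 3, 7 had one, where chance gives about 3 (1 in 20). The log2 ratio of the brighter Slc18a2 probe was 0.28 on array 1 and 0.37 to 0.38 on the others. The second Slc18a2 probe had a T3 level of 9.54 on array 2 against 10.13 to 10.18. The Gch1 level in saline rats was 10.26 on array 4 against 8.22 to 8.50. The Pts levels on array 4 were 6.09 in the T3 rat, against 9.31 to 9.88, and 6.23 in the saline rat, against 9.27 to 9.68. The median ratio of the hypothalamic nucleus markers was -0.50 on array 3 against -0.08 to -0.02. The median of the thalamus markers was -0.26 on array 4 against 0.08 to 0.09.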

How the results depend on the processing

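Hdc and Qdpr kept the direction of their means in each alternative. Th, Ddc and Slc18a2 kept it in each but 1, the authors' deposited table. In the authors' deposited table Th had -0.053, Ddc -0.16 and Slc18a2 -0.15, while Hdc had -0.093 and Qdpr -0.62. The Hdc values in it were 0.26, -0.02, 0.05 and -0.66 on arrays 1 to 4, positive on 2 of them. Of the 8 members, 1 had a mean above 0 there, against 5 from the scanner files, and the cause was not tested. Leaving out 1 array at a time gave 5 to 6 members above 0, with Th at 0.55 to 0.64, Ddc at 0.41 to 0.51, Slc18a2 at 0.34 to 0.38, Hdc at -0.39 to -0.25 and Qdpr at -0.67 to -0.55.

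In limma, 23 probes passed an adjusted p of 0.05 (1880 at an unadjusted p under 0.05), against 67 with no filter on dim probes, 15 with a dye term and 10 from the authors' deposited table. None (0) passed with Agilent's processed signals (1597 unadjusted), with trend and robust eBayes (1162), or without the replicate block, as 8 unpaired channels (534). Leaving out 1 array gave 0 to 70 probes: 0 without array 1 (1401 unadjusted), 70 without array 2, 0 without array 3 (1381) and 0 without array 4 (1578). The call of Foxa2, the 1 pathway gene past the threshold, was lost (0 genes) with processed signals, the dye term, trend and robust eBayes, no replicate block and the authors' deposited table. Leaving out 1 array gave 0 to 1 pathway genes: Foxa2 had an adjusted p of 0.197, 0.0532, 0.260 and 0.160 without arrays 1 to 4, and without array 2 Aldh1a1 passed (adjusted p = 0.0314).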
